A study of Rattus norvegicus with 9 samples.

Results

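Integrins and the linkers that join them to actin were examined in cultured rat fibroblasts of 3 kinds. The members were the rows of the deposited expression tables whose gene symbol is on a list of 35 genes, which holds 26 integrin subunits and 9 focal adhesion linkers. Of these, 34 were found among the 32883 genes of the tables (25 integrin subunits and 9 linkers), and Itgam, the alpha M subunit, is not analysed here. RNA was sequenced in 9 libraries, 3 each of Fb-Epn (fibroblasts grown from the epineurium, the outer sheath of a nerve), Fb-Par (from the nerve parenchyma inside that sheath) and Fb-Skn (from abdominal skin). All cells came from male wild-type (WT) Lewis rats of 10 weeks of age, without treatment or injury, and were sequenced after 1 passage in DMEM/Ham's F-12 with 10% fetal bovine serum. Fb-Epn and Fb-Par came from the sciatic nerves of 2 rats and Fb-Skn from 1 other rat, so the 3 libraries of each type do not stand for 3 animals. Nothing in the sources used here states whether they were separate cultures, and p-values therefore measure only the spread between these samples, which may be technical. The parenchyma holds more than 1 layer of the nerve, and Fb-Par were not separated further. Between either nerve-derived type and Fb-Skn, the tissue, the rat and the body site change together and cannot be told apart.

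Integrins are heterodimers of an alpha and a beta subunit that span the cell membrane and bind matrix proteins or receptors on other cells. The alpha subunit largely sets the ligand: one group binds collagens, another laminins, a further one the RGD motif of fibronectin, vitronectin and related proteins, and the leukocyte group binds cell surface receptors and complement fragments. Inside the cell, talin and kindlin bind the beta tail and switch the receptor to its active form, vinculin and the parvins tie the site to actin, and focal adhesion kinase and paxillin pass signals on. In peripheral nerve, fibroblasts and Schwann cells use these receptors to hold to the collagen and laminin of the matrix around axons.

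Total counts per library ranged from 10084584 to 12310506, and libraries of the same type varied by a common coefficient of 8.25%. Levels are given as the deposited TPM (transcript abundance scaled by gene length and library total, so that it can be set beside that of another gene). Differences were tested on the raw counts with the quasi-likelihood test of edgeR in 1 model of all 9 libraries, with Benjamini-Hochberg adjustment over the 13273 genes that passed the expression filter. A gene was called when its adjusted p was below 0.01, and called genes with a log2 fold change above 2 or below -2 are termed DE (differentially expressed). Fold changes are of the first type named over the second. In these bulk samples, fewer cells of a type and less RNA per cell cannot be told apart. The 8 fibroblast markers present (of 9 listed, among them Col1a1, Dcn and Pdgfra) were above 0 in every library and summed to 31136 to 31357 TPM in Fb-Epn, 26221 to 27259 TPM in Fb-Par and 29850 to 30963 TPM in Fb-Skn. Of these 8, 4 were higher and 4 lower in Fb-Epn relative to each other type, and 6 were higher and 2 lower in Fb-Par relative to Fb-Skn.

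In all 3 kinds of fibroblasts, Itgb1 and Itga11 were the most abundant integrin RNAs. Most members, Itga11 among them, differed in level between the kinds. Of the members, 33 passed the expression filter, and Itgb6 did not. Between Fb-Epn and Fb-Par, 27 of the 33 tested members (81.8%) were called, against 38.8% of all tested genes. Of these, 12 were higher in Fb-Epn (20.2% of all genes were) and 15 were lower (18.6% of all genes). DE calls numbered 5, against 6.48% of all genes, and were 4 genes higher in Fb-Epn (Itga2, Itgad, Itgb2 and Itgb7) and 1 lower (Itga10).

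Between Fb-Epn and Fb-Skn, 26 of 33 tested members (78.8%) were called, with 43.9% of all genes as background. The split was 15 higher in Fb-Epn (23.0% of all genes) and 11 lower (20.9% of all genes). The 9 DE members (8.44% of all genes were DE) were Itga2, Itga9, Itga10, Itgad, Itgax, Itgb2, Itgb7 and Itgb8, all higher in Fb-Epn, and Itga4, which was lower. Between Fb-Par and Fb-Skn, 28 of 33 tested members (84.8%) were called, with 45.6% of all genes as background. Here 18 were higher in Fb-Par (23.2% of all genes) and 10 were lower (22.4% of all genes). The 9 DE members (8.54% of all genes were DE) were Itga1, Itga2, Itga7, Itga9, Itga10, Itgax, Itgb3 and Itgb8, higher in Fb-Par, and Itga8, which was lower.

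The median size of the log2 fold change of the tested members was 0.56, 1.05 and 1.08 in these comparisons, and it was 0.28, 0.33 and 0.34 over all tested genes. Integrin subunits carried the large differences, and all DE calls were integrins. In each comparison 0 of 9 linkers was DE, where 6.48%, 8.44% and 8.54% of all genes were, so a count of 0 is near that share. The median size was 0.74, 1.34 and 1.45 for the 24 tested integrins and 0.40, 0.36 and 0.31 for the 9 linkers. The signed medians of the members were -0.014, 0.12 and 0.42. Library values did not overlap between the types in TPM for 14 members above and 15 below (Fb-Epn and Fb-Par, 57.3% of all genes), 18 above and 11 below (Fb-Epn and Fb-Skn, 61.4%) and 18 above and 9 below (Fb-Par and Fb-Skn, 61.7%). The 3 comparisons share libraries, and the members were not matched to other genes by their level. A gene that passed the expression filter only through the type where it is high had to differ, so these counts and medians are descriptions.

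**Figure D1:**
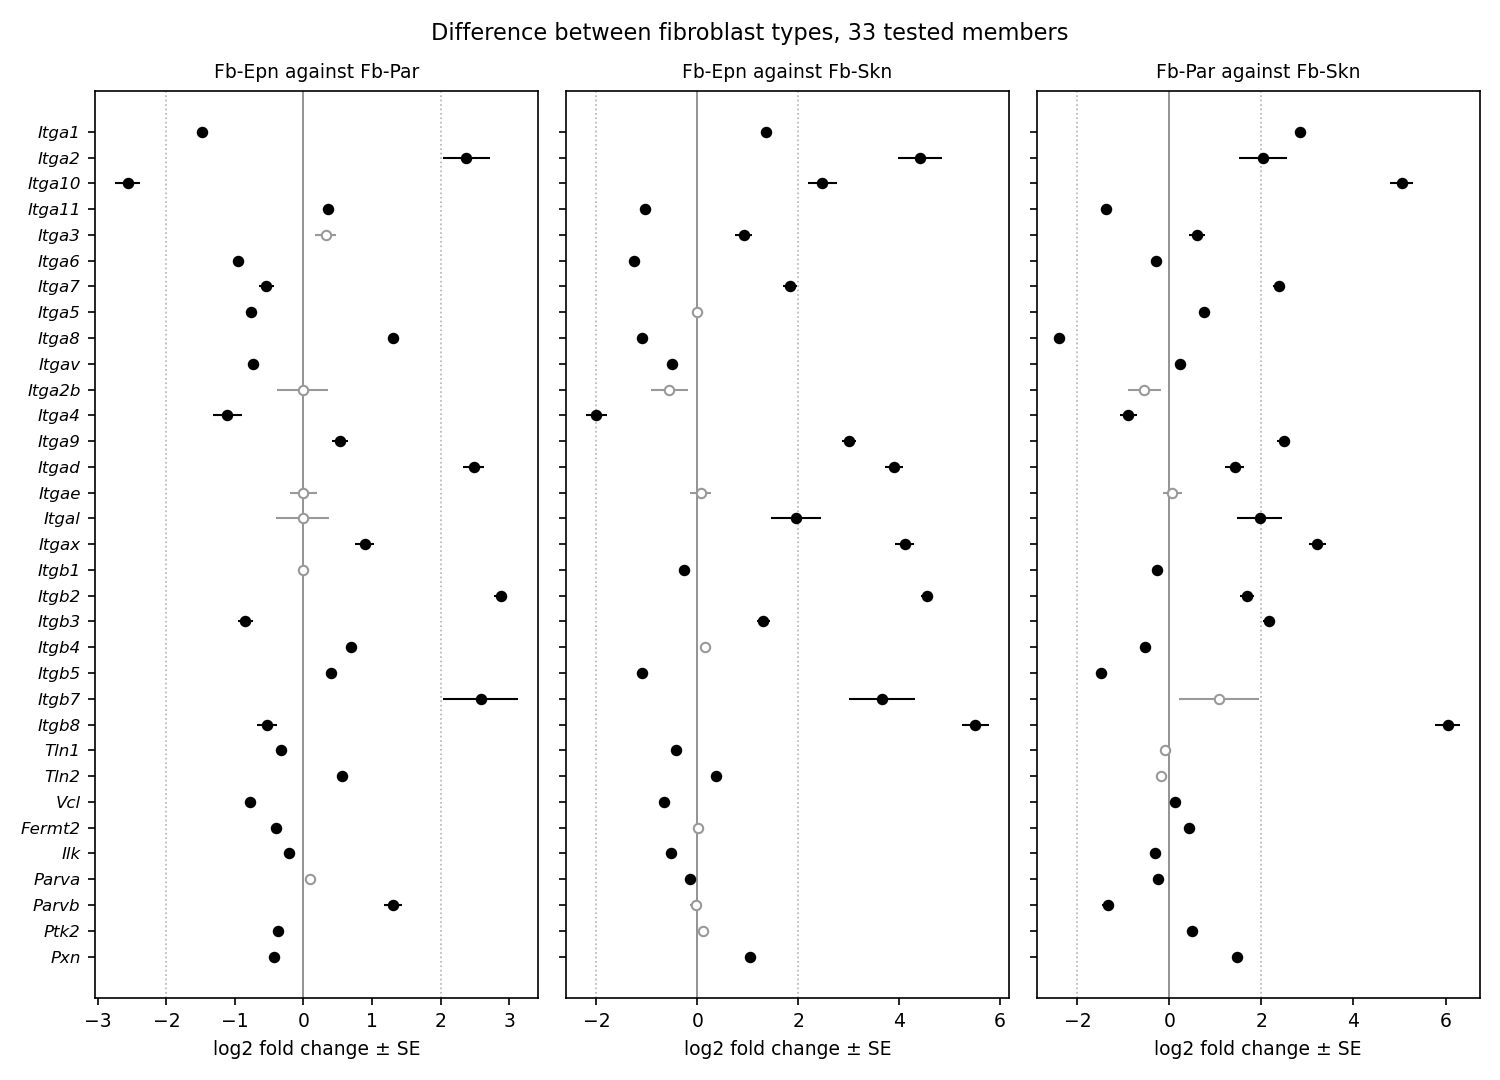
Log2 fold change (x axis, log2 units) of each of the 33 tested members (y axis) in the 3 comparisons between fibroblast types, from the edgeR fit. Bars are ± SE, filled black points are called (adjusted p below 0.01), open grey points are not, and dotted lines mark -2 and 2; the integrins at the top spread from -2.56 to 6.04, while the linkers from Tln1 downwards lie between -1.34 and 1.48.

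The collagen-binding alpha subunits (alpha 1, 2, 10 and 11, all partners of beta 1) differed between all 3 types, and Itga1 and Itga11 did so in opposite orders. Itga1 (chromosome 2, 47127219 to 47281421 in rn6, minus strand) encodes the subunit that prefers the collagen IV of basement membranes. The Fb-Epn libraries had 102, 113 and 97.4 TPM of Itga1, the Fb-Par libraries 288, 280.1 and 309 TPM, and the Fb-Skn libraries 32.0, 40.1 and 38.5 TPM. Fb-Par stood highest and Fb-Skn lowest, without overlap. The log2 fold change was -1.48 (SE 0.065, adjusted p = 8.7e-11) between Fb-Epn and Fb-Par, 1.36 (SE 0.071, adjusted p = 5.8e-10) between Fb-Epn and Fb-Skn and 2.84 (SE 0.071, adjusted p = 1.1e-13) between Fb-Par and Fb-Skn. The row of Itga1 overlaps that of Pelo on the same strand, so reads of the shared stretch cannot be told apart.

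Itga11 (chromosome 8, 67615635 to 67683973 in rn6, plus strand), the receptor subunit of mesenchymal cells for fibrillar collagens, was the most abundant alpha subunit in every library. Its level was 472, 479 and 463 TPM in Fb-Epn, 382, 356 and 371 TPM in Fb-Par and 834, 892 and 892 TPM in Fb-Skn. Here Fb-Skn stood highest and Fb-Par lowest, again without overlap. On the log2 scale, the difference was 0.36 (SE 0.030, adjusted p = 1.2e-07) between Fb-Epn and Fb-Par, -1.03 (SE 0.030, adjusted p = 6.9e-13) between Fb-Epn and Fb-Skn and -1.39 (SE 0.030, adjusted p = 2.4e-14) between Fb-Par and Fb-Skn. Itga1 TPM was 0.221 times that of Itga11 in Fb-Epn, 0.791 times in Fb-Par but 0.0422 times in Fb-Skn (means of 3 libraries).

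The stretches of 250 bases before the start sites of Itga1 and Itga11 are shown because these genes bind the same class of ligand and had opposite orders over the 3 types. They are RefSeq sequences in the build GRCr8, which is not the build of the deposited tables, written 5′ to 3′ on the strand of the gene. Itga1 lies at chr2:48545284-48545533 (minus strand) and Itga11 at chr8:72041182-72041431 (plus strand). Capitals mark the SP/KLF motif GGGCGG, searched on both strands, of which Itga11 held 1 and Itga1 none, and 30.5% of all 33469 RefSeq promoter windows of this length held it.
Itga1: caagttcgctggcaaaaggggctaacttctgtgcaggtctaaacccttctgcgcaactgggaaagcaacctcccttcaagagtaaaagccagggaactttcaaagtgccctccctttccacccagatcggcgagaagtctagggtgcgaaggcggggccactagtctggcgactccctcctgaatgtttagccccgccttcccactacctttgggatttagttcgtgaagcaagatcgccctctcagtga
Itga11: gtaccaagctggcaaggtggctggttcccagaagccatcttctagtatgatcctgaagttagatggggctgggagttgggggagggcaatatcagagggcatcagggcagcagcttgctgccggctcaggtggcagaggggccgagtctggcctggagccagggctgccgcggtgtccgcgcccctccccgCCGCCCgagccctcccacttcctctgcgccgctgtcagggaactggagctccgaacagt

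Itga2 and Itga10 were low collagen receptor subunits with large differences. Itga2, the alpha subunit of a collagen receptor of platelets and epithelia, stood at 2.89, 4.66 and 2.5 TPM in Fb-Epn, 0.709, 0.820 and 0.416 TPM in Fb-Par and 0.190, 0.0545 and 0.162 TPM in Fb-Skn. It fell from Fb-Epn through Fb-Par to Fb-Skn without overlap, on 49 to 102, 8 to 15 and 1 to 4 counts per library. Its log2 fold change was 2.37 (SE 0.34, adjusted p = 3.9e-05) between Fb-Epn and Fb-Par, 4.41 (SE 0.44, adjusted p = 8.2e-07) between Fb-Epn and Fb-Skn and 2.03 (SE 0.53, adjusted p = 0.0044) between Fb-Par and Fb-Skn. The last call was lost without Fb-Par replicate 1 (1.96, adjusted p = 0.014), Fb-Par replicate 2 (1.85, adjusted p = 0.017), Fb-Skn replicate 2 (1.68, adjusted p = 0.02) or Fb-Skn replicate 3 (2.15, adjusted p = 0.011), and with limma on log2(TPM + 1) (0.53, adjusted p = 0.032). The leukocyte markers given below had the order of Itga2, and their part in its values was not tested.

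Itga10, known from cartilage, had 1.66, 1.54 and 1.02 TPM in Fb-Epn, 8, 9.58 and 7.64 TPM in Fb-Par and 0.219, 0.25 and 0.207 TPM in Fb-Skn. Like Itga1, it was highest in Fb-Par and lowest in Fb-Skn, and no libraries overlapped. As a log2 fold change, this was -2.56 (SE 0.18, adjusted p = 2.0e-08) between Fb-Epn and Fb-Par, 2.48 (SE 0.28, adjusted p = 3.4e-06) between Fb-Epn and Fb-Skn and 5.04 (SE 0.24, adjusted p = 1.9e-10) between Fb-Par and Fb-Skn. The order Fb-Par, Fb-Epn, Fb-Skn of Itga1 and Itga10 was also that of the summed TPM of the Schwann cell markers (9 of 10 listed genes present). This sum was 280.4 to 289 in Fb-Par, 199.6 to 209.8 in Fb-Epn and 10.8 to 13.4 in Fb-Skn. S100b, the most abundant of these markers, did not have this order. It was at 121 to 137 TPM in Fb-Epn, 116 to 125 TPM in Fb-Par and 6.88 to 9.21 TPM in Fb-Skn. Of these 9 markers, 8 were lower in Fb-Epn relative to Fb-Par, 8 were higher in Fb-Epn relative to Fb-Skn and 9 were higher in Fb-Par relative to Fb-Skn, and Sox10, Erbb3 and Cdh19 were among those at 0 counts in every Fb-Skn library. The part of Schwann cells in these differences was not tested.

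**Figure D2:**
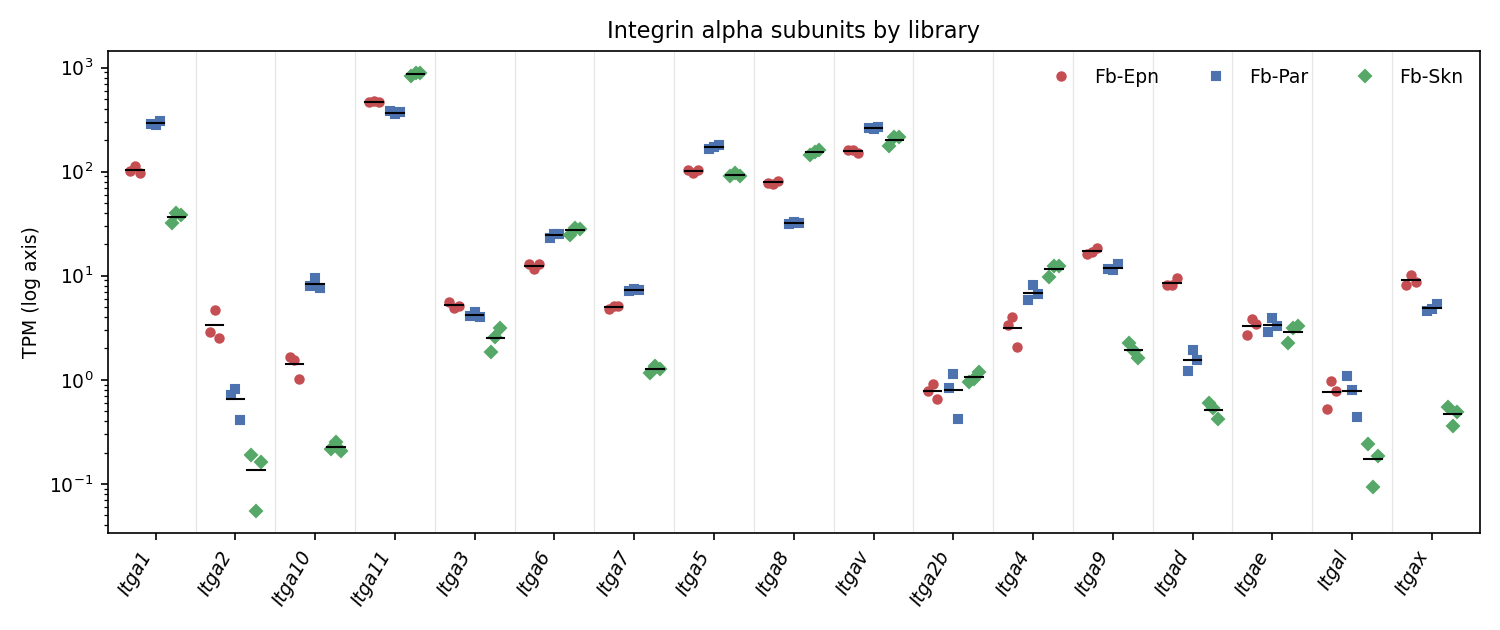
TPM (y axis, log scale) of the 17 integrin alpha subunits (x axis) in each of the 9 libraries. Each point is 1 library, symbols and colours give the fibroblast type, and black bars are means of 3 libraries; Itga11 tops every type, while Itga1 peaks in Fb-Par and Itga8 in Fb-Skn.

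Among the laminin-binding subunits, Itga7 was lowest in Fb-Skn and Itga6 was lowest in Fb-Epn. Itga7, the laminin receptor subunit best known from muscle, was at 4.76, 5.11 and 5.09 TPM in Fb-Epn, 7.17, 7.49 and 7.28 TPM in Fb-Par and 1.16, 1.37 and 1.28 TPM in Fb-Skn. The types did not overlap. The log2 fold change was -0.54 (SE 0.11, adjusted p = 8.5e-04) between Fb-Epn and Fb-Par, 1.84 (SE 0.13, adjusted p = 2.1e-08) between Fb-Epn and Fb-Skn and 2.38 (SE 0.13, adjusted p = 7.9e-10) between Fb-Par and Fb-Skn. The summed level of the 6 skeletal muscle markers had the same order, at 9.11 to 10.9 TPM in Fb-Epn, 79.3 to 91.9 TPM in Fb-Par and 2.27 to 4.40 TPM in Fb-Skn, and the myogenic factors Myod1, Myog and Pax7 were at 0 in every library. Of the 2 muscle markers tested, Des was higher and Acta1 lower in Fb-Epn relative to Fb-Par, and relative to Fb-Skn both were higher in Fb-Epn and Acta1 was higher in Fb-Par. The summed Schwann cell markers given above had this order too, and the part of muscle and Schwann cells in the Itga7 values was not tested. The Itga7 row overlaps that of Mettl7b on the opposite strand.

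Itga6, which pairs with beta 1 or beta 4 to bind laminin, had 12.9, 11.6 and 13.0 TPM in Fb-Epn, 23.2, 25.4 and 24.9 TPM in Fb-Par and 24.7, 29.0 and 28.0 TPM in Fb-Skn. Fb-Epn was below both other types, which overlapped each other. On the log2 scale, the difference was -0.96 (SE 0.068, adjusted p = 2.1e-08) between Fb-Epn and Fb-Par and -1.26 (SE 0.068, adjusted p = 8.6e-10) between Fb-Epn and Fb-Skn. The difference between Fb-Par and Fb-Skn was -0.30 (SE 0.064, adjusted p = 0.0011), and this call was lost with library sizes alone as the scaling (-0.21, adjusted p = 0.014) and with limma on log2(TPM + 1) (-0.14, adjusted p = 0.16).

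Itga3, the subunit for laminins of epithelial basement membranes, ranged from 4.92 to 5.64 TPM in Fb-Epn, 4.00 to 4.51 TPM in Fb-Par and 1.83 to 3.14 TPM in Fb-Skn. It was higher in Fb-Epn relative to Fb-Skn (log2 fold change 0.92, SE 0.17, adjusted p = 3.1e-04), and Fb-Epn over Fb-Par gave 0.32 (SE 0.16, adjusted p = 0.11). The value for Fb-Par over Fb-Skn, 0.60 (SE 0.17, adjusted p = 0.0079), was close to the threshold. It was no longer called without any 1 of Fb-Epn replicates 1, 2 and 3, Fb-Par replicates 1, 2 and 3 or Fb-Skn replicates 1 and 2, with values from 0.42 (without Fb-Skn replicate 1, adjusted p = 0.04) to 0.64 (without Fb-Par replicate 3, adjusted p = 0.014), nor with DESeq2 (0.62, adjusted p = 0.01) or only the libraries of these types (0.62, adjusted p = 0.013).

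Among the subunits that bind the RGD motif, Itga8 was highest in Fb-Skn and Itga5 in Fb-Par. Itga8 (chromosome 17, 79321900 to 79676499 in rn6, minus strand), a partner of beta 1 that binds fibronectin and nephronectin, had 77.9, 76.1 and 81.9 TPM in Fb-Epn, 31.6, 32.7 and 31.8 TPM in Fb-Par and 144, 155 and 159.6 TPM in Fb-Skn. As for Itga11, Fb-Skn was highest and Fb-Par lowest, without overlap. Its log2 fold change was 1.31 (SE 0.042, adjusted p = 2.2e-12) between Fb-Epn and Fb-Par, -1.10 (SE 0.039, adjusted p = 6.4e-12) between Fb-Epn and Fb-Skn and -2.41 (SE 0.042, adjusted p = 1.8e-15) between Fb-Par and Fb-Skn. Itga8 was the only DE member that was lower in Fb-Par relative to Fb-Skn.

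Itga5, the classical fibronectin receptor subunit, was instead highest in Fb-Par, at 96.3 to 104 TPM in Fb-Epn, 164 to 179 TPM in Fb-Par and 90.1 to 96.5 TPM in Fb-Skn. It was higher in Fb-Par relative to Fb-Epn (log2 fold change of Fb-Epn over Fb-Par -0.76, SE 0.043, adjusted p = 1.7e-09) and higher in Fb-Par relative to Fb-Skn (0.75, SE 0.043, adjusted p = 1.7e-09). Fb-Epn and Fb-Skn overlapped, with a log2 fold change of -0.011 (SE 0.044, adjusted p = 0.85). The ratio of Itga8 to Itga5 TPM was 0.778 in Fb-Epn, 0.186 in Fb-Par but 1.66 in Fb-Skn (means of 3 libraries).

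The 250 bases before the Itga8 start site are shown as those of an abundant gene with the order of Itga11, for comparison with Itga11. They lie at chr17:80410634-80410883 on the minus strand of GRCr8 (RefSeq), and no motif of the 4 searched was found in them.
Itga8: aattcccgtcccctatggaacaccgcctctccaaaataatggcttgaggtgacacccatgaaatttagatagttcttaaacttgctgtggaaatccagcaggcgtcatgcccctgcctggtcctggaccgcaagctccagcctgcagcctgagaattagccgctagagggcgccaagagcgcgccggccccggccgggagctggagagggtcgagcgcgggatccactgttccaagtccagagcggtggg

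Itgav, which pairs with several beta subunits to bind vitronectin and latent TGF-beta, ranged from 152 to 162 TPM in Fb-Epn, 259 to 271 TPM in Fb-Par and 178 to 217 TPM in Fb-Skn. It was lowest in Fb-Epn, with log2 fold changes of -0.73 (SE 0.054, adjusted p = 3.6e-08) over Fb-Par and -0.50 (SE 0.055, adjusted p = 2.3e-06) over Fb-Skn, and higher in Fb-Par relative to Fb-Skn (0.23, SE 0.054, adjusted p = 0.002). Itga2b, the fibrinogen receptor subunit of platelets, was at 0.655 to 0.906 TPM in Fb-Epn, 0.424 to 1.15 TPM in Fb-Par and 0.944 to 1.20 TPM in Fb-Skn, on 7 to 19 counts per library. Its 3 differences had adjusted p = 0.98, 0.21 and 0.22, and at this depth none was detectable. Of the 4 platelet markers, Pf4 held nearly all of the sum, which was 170.8 to 189 TPM in Fb-Epn, 16.8 to 28.2 TPM in Fb-Par and 11.8 to 26.2 TPM in Fb-Skn, and Ppbp was at 0 in every library. The 1 platelet marker tested was higher in Fb-Epn relative to each other type and was not called between Fb-Par and Fb-Skn, and its part in the Itga2b values was not tested.

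Itga4 and Itga9, related subunits that bind VCAM-1 and tenascin-C among others, went in opposite directions. Itga4 had 3.35, 3.99 and 2.05 TPM in Fb-Epn, 5.80, 8.19 and 6.62 TPM in Fb-Par and 9.76, 12.3 and 12.4 TPM in Fb-Skn. It was lowest in Fb-Epn and highest in Fb-Skn, without overlap. As a log2 fold change, this was -1.11 (SE 0.21, adjusted p = 4.6e-04) between Fb-Epn and Fb-Par, -2.004 (SE 0.20, adjusted p = 1.0e-06) between Fb-Epn and Fb-Skn, which lies at the DE limit, and -0.89 (SE 0.19, adjusted p = 9.8e-04) between Fb-Par and Fb-Skn. The last call was lost with limma on log2(TPM + 1), at -0.67 and an adjusted p of 0.014.

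Itga9 stood at 16.1, 16.9 and 18.7 TPM in Fb-Epn, 11.5, 11.5 and 13.0 TPM in Fb-Par and 2.24, 1.89 and 1.61 TPM in Fb-Skn. Both nerve-derived types were far above Fb-Skn. The log2 fold change was 3.01 (SE 0.14, adjusted p = 1.6e-10) between Fb-Epn and Fb-Skn, 2.48 (SE 0.14, adjusted p = 1.6e-09) between Fb-Par and Fb-Skn and 0.53 (SE 0.11, adjusted p = 0.0011) between Fb-Epn and Fb-Par. The last call was lost with limma on log2(TPM + 0.1), at 0.52 and an adjusted p of 0.012. The leukocyte markers given below had the order of Itga9, and the Schwann cell markers given above were also low in Fb-Skn. Their part in the Itga9 values was not tested.

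The leukocyte integrins Itgb2, Itgax and Itgad were highest in Fb-Epn. Itgb2, the beta 2 subunit shared by the leukocyte receptors, had 50.9, 54.1 and 55.8 TPM in Fb-Epn, 7.29, 8.30 and 6.49 TPM in Fb-Par and 1.75, 2.53 and 1.92 TPM in Fb-Skn. The levels fell in that order without overlap. On the log2 scale, the difference was 2.88 (SE 0.098, adjusted p = 4.5e-12) between Fb-Epn and Fb-Par, 4.56 (SE 0.12, adjusted p = 2.1e-13) between Fb-Epn and Fb-Skn and 1.68 (SE 0.14, adjusted p = 1.3e-07) between Fb-Par and Fb-Skn.

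Itgax, the alpha X subunit of macrophages and dendritic cells, had 8.18, 10.2 and 8.68 TPM in Fb-Epn, 4.57, 4.74 and 5.40 TPM in Fb-Par and 0.550, 0.360 and 0.491 TPM in Fb-Skn. It followed the order of Itgb2. Its log2 fold change was 0.89 (SE 0.14, adjusted p = 6.6e-05) between Fb-Epn and Fb-Par, 4.11 (SE 0.19, adjusted p = 1.2e-10) between Fb-Epn and Fb-Skn and 3.22 (SE 0.19, adjusted p = 2.8e-09) between Fb-Par and Fb-Skn.

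Itgad, the alpha D subunit of macrophages, had 8.17, 8.20 and 9.43 TPM in Fb-Epn, 1.20, 1.93 and 1.54 TPM in Fb-Par and 0.593, 0.537 and 0.421 TPM in Fb-Skn. The same order held without overlap. As a log2 fold change, this was 2.48 (SE 0.16, adjusted p = 5.9e-09) between Fb-Epn and Fb-Par, 3.90 (SE 0.18, adjusted p = 1.9e-10) between Fb-Epn and Fb-Skn and 1.42 (SE 0.21, adjusted p = 4.6e-05) between Fb-Par and Fb-Skn. The row of Itgad (chromosome 1, 199495298 to 199623960 in rn6) spans the whole row of Itgax (199555722 to 199576932) on the same strand, and the RefSeq order of genes there is Itgam, Itgax, Itgad. Reads of these 3 genes can therefore not be told apart with certainty, and the Itgad and Itgax values are uncertain.

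Itgal, the alpha L subunit of lymphocytes, had 12 to 25 counts per library in Fb-Epn, 10 to 27 in Fb-Par but 2 to 6 in Fb-Skn. The log2 fold change over Fb-Skn was 1.95 for Fb-Epn (SE 0.49, adjusted p = 0.0039) and 1.96 for Fb-Par (SE 0.49, adjusted p = 0.0036), and Fb-Epn over Fb-Par gave -0.014 (SE 0.39, adjusted p = 0.98). The first call was lost without Fb-Epn replicate 2 (1.72, adjusted p = 0.021), Fb-Epn replicate 3 (1.94, adjusted p = 0.011), Fb-Skn replicate 2 (1.66, adjusted p = 0.021) or Fb-Skn replicate 3 (1.98, adjusted p = 0.014). The second was lost without Fb-Par replicate 1 (1.63, adjusted p = 0.024), Fb-Par replicate 2 (1.95, adjusted p = 0.01), Fb-Skn replicate 2 (1.68, adjusted p = 0.02) or Fb-Skn replicate 3 (1.99, adjusted p = 0.013). Both were lost with limma on log2(TPM + 1), at 0.58 with adjusted p = 0.011 and 0.01.

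Itgae, the alpha E subunit that binds E-cadherin, was at 2.67 to 3.83 TPM in Fb-Epn, 2.86 to 3.89 TPM in Fb-Par and 2.27 to 3.27 TPM in Fb-Skn, and the types overlapped. Its log2 fold changes were 0.0005, 0.064 and 0.064 (SE 0.20, adjusted p = 1, 0.81 and 0.81), and its row overlaps those of several other genes, among them P2rx1 and Camkk1. Itgb7, the partner of alpha 4 and alpha E, had 1.18, 1.83 and 1.46 TPM in Fb-Epn, 0.339, 0.313 and 0.0744 TPM in Fb-Par and 0, 0.234 and 0.0774 TPM in Fb-Skn. Fb-Epn was above both other types, which overlapped. The log2 fold change between Fb-Epn and Fb-Par was 2.59 (SE 0.55, adjusted p = 0.0012). Fb-Skn had 0 to 3 counts per library. The ratio of scaled counts was 13.8 for Fb-Epn over Fb-Skn (95% exact interval 5.13 to 52.2) and 2.22 for Fb-Par over Fb-Skn (0.640 to 9.69). These intervals cover counting error only. For the same differences, the edgeR test gave adjusted p = 2.5e-04 and 0.32. The fitted log2 fold change of Fb-Epn over Fb-Skn, 3.66, became 3.07 without Fb-Skn replicate 1 and 4.93 without Fb-Skn replicate 2.

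The leukocyte markers moved with Itgb2, Itgax and Itgad. Of the 12 listed, all present, 10 were tested, and all 10 were higher in Fb-Epn relative to both other types and in Fb-Par relative to Fb-Skn. Their summed TPM was 391 to 421 in Fb-Epn, 111 to 114 in Fb-Par but 30.5 to 32.3 in Fb-Skn. The pan-leukocyte gene Ptprc was at 5.44 to 6.12, 1.23 to 1.55 and 0.206 to 0.545 TPM and the macrophage gene Cd68 at 147 to 161, 24.8 to 29.5 and 6.55 to 8.58 TPM in these types, and the T cell gene Cd3e was at 0 in every library. The part of leukocytes in the values of these integrins was not tested.

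**Figure D3:**
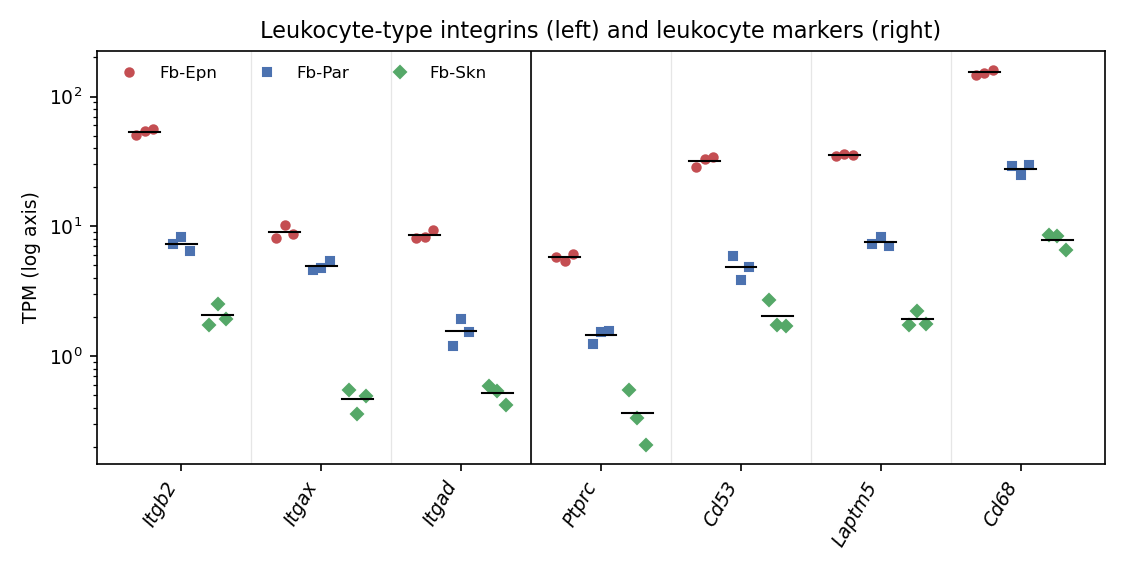
TPM (y axis, log scale) of 3 leukocyte-type integrins (left of the line) and 4 leukocyte markers (right of the line) in each of the 9 libraries. Points are libraries, symbols and colours give the type, and black bars are means of 3 libraries; Fb-Epn is above Fb-Par and Fb-Par above Fb-Skn for each of the 7 genes.

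Itgb1, the common beta subunit of the collagen, laminin and fibronectin receptors, was the most abundant integrin RNA, at 1626 to 1649.6 TPM in Fb-Epn, 1623 to 1678 TPM in Fb-Par and 1721 to 1826 TPM in Fb-Skn. Fb-Epn and Fb-Par overlapped, with a log2 fold change of -0.005 (SE 0.022, adjusted p = 0.87). Both were lower than Fb-Skn, by small amounts: -0.27 (SE 0.022, adjusted p = 9.5e-08) for Fb-Epn and -0.26 (SE 0.022, adjusted p = 1.1e-07) for Fb-Par.

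The alpha V partners Itgb3 and Itgb5 changed in opposite directions. Itgb3, of the vitronectin receptor, had 18.7, 16.4 and 15.6 TPM in Fb-Epn, 31.7, 30.9 and 29.4 TPM in Fb-Par and 4.91, 6.33 and 7.41 TPM in Fb-Skn. Its row overlaps an unnamed gene model on the same strand. The log2 fold change was -0.85 (SE 0.11, adjusted p = 1.6e-05) between Fb-Epn and Fb-Par, 1.31 (SE 0.13, adjusted p = 7.5e-07) between Fb-Epn and Fb-Skn and 2.16 (SE 0.13, adjusted p = 1.7e-09) between Fb-Par and Fb-Skn. Itgb5, another vitronectin receptor subunit, whose row the tables type as a processed transcript, had 99.6, 93.4 and 98.1 TPM in Fb-Epn, 71.0, 74.0 and 77.3 TPM in Fb-Par and 189, 188 and 185 TPM in Fb-Skn. Fb-Par was highest and Fb-Skn lowest for Itgb3, and the reverse held for Itgb5. The order of Itgb3 was also that of the summed Schwann cell markers, whose part in it was not tested. The fitted log2 fold change of Itgb5 was 0.40 (SE 0.042, adjusted p = 1.5e-06) between Fb-Epn and Fb-Par, -1.09 (SE 0.040, adjusted p = 1.2e-11) between Fb-Epn and Fb-Skn and -1.49 (SE 0.041, adjusted p = 3.6e-13) between Fb-Par and Fb-Skn. The ratio of Itgb5 to Itgb3 TPM was 5.77 in Fb-Epn, 2.42 in Fb-Par but 31.0 in Fb-Skn (means of 3 libraries).

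Itgb8, which with alpha V binds latent TGF-beta, had the largest fitted fold change among the members, between Fb-Par and Fb-Skn. It had 8.15, 6.46 and 6.54 TPM in Fb-Epn, 9.98, 9.60 and 11.2 TPM in Fb-Par and 0.0526, 0.181 and 0.179 TPM in Fb-Skn. In counts, these were 116 to 143, 159 to 196 and 1 to 3 per library. The ratio of scaled counts was 47.7 for Fb-Epn over Fb-Skn (95% exact interval 22.9 to 119) and 69.2 for Fb-Par over Fb-Skn (33.4 to 173). For these differences, the edgeR test gave adjusted p = 3.2e-10 and 6.3e-11. The Schwann cell markers given above were also low in Fb-Skn, and their part in these ratios was not tested. Fb-Epn over Fb-Par gave a log2 fold change of -0.53 (SE 0.15, adjusted p = 0.0074), and this call was lost without Fb-Epn replicate 2 (-0.48, adjusted p = 0.035), Fb-Epn replicate 3 (-0.48, adjusted p = 0.036), Fb-Par replicate 1 (-0.56, adjusted p = 0.02), Fb-Par replicate 2 (-0.58, adjusted p = 0.015) or Fb-Par replicate 3 (-0.47, adjusted p = 0.042), and with DESeq2 (-0.54, adjusted p = 0.014) or limma on log2(TPM + 0.1) (-0.54, adjusted p = 0.11).

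The 250 bases before the start site of Itgb8 are shown for that reason. They lie at chr6:146351246-146351495 on the minus strand of GRCr8 (RefSeq). Capitals mark, in order, 1 TEAD motif (GGAATG, which 12.1% of all windows held on either strand) and 1 SP/KLF motif (GGGCGG, read on the other strand).
Itgb8: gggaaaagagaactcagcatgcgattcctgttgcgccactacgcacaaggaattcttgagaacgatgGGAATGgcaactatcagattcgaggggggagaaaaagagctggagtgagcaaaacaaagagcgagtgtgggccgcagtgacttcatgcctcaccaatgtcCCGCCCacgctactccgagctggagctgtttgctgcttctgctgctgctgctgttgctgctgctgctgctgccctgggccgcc

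Of the 35 listed genes, 25 had a RefSeq promoter entry, with 26 promoters. GGGCGG was present in 12 of these 26 windows of 250 bases, with 30.5% of all windows as background, and GGAATG in 5 of 26, with 12.1% as background. The AP-1 motif TGANTCA was found in 1 of 26 (Itgax), with 6.34% of all windows, and the CArG box in 1 of 26 (Itgb6), with 1.5%. All were searched on both strands, and these matches describe letters in a window only.

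Itgb4, the laminin receptor subunit of hemidesmosomes, ranged from 13.6 to 13.8 TPM in Fb-Epn, 8.30 to 8.74 TPM in Fb-Par and 10.9 to 11.3 TPM in Fb-Skn. It was lowest in Fb-Par, with log2 fold changes of 0.69 (SE 0.062, adjusted p = 2.7e-07) for Fb-Epn over Fb-Par and -0.54 (SE 0.063, adjusted p = 3.9e-06) for Fb-Par over Fb-Skn. Fb-Epn over Fb-Skn gave 0.15 (SE 0.060, adjusted p = 0.045), which was called with library sizes alone as the scaling (0.24, adjusted p = 0.0036). The row overlaps that of Galk1 on the opposite strand. Itgb6, an epithelial partner of alpha V, had 0 to 2 counts per library in Fb-Epn, 10 to 18 in Fb-Par but 2 to 6 in Fb-Skn and was not tested. The ratio of scaled counts was 14.4 for Fb-Par over Fb-Epn (95% exact interval 4.61 to 72.7) and 4.64 for Fb-Skn over Fb-Epn (1.25 to 25.6). The 8 keratinocyte markers present (of 9 listed) summed to 2.51 to 3.03, 3.40 to 4.80 and 3.13 to 4.36 TPM (Fb-Epn, then Fb-Par, then Fb-Skn), with Krt1 at 0 in every library, and the 1 that was tested was not called in any comparison.

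**Figure D4:**
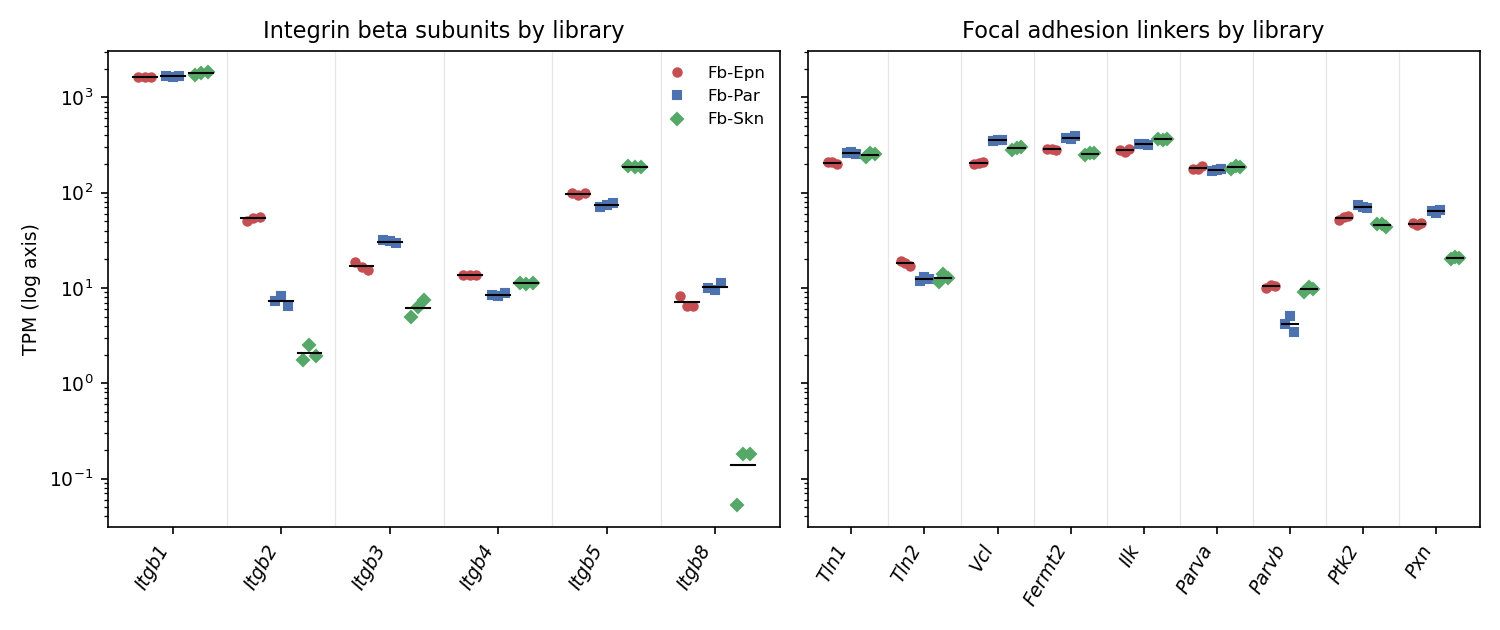
TPM (y axis, log scale) of 6 integrin beta subunits (left) and the 9 focal adhesion linkers (right) in each of the 9 libraries. Points are libraries, symbols and colours give the type, and black bars are means of 3 libraries; Itgb8 is near 0.1 TPM in Fb-Skn, Itgb2 falls from Fb-Epn to Fb-Skn, and the linkers lie close together apart from Parvb and Pxn.

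Seen as shares, the same few subunits made up most integrin RNA in each type, in different proportions. The 17 alpha subunits summed to 967.7 to 999 TPM in Fb-Epn, 1181 to 1237 TPM in Fb-Par and 1324 to 1450.4 TPM in Fb-Skn. Itga11 took 47.9% of this sum in Fb-Epn, 30.7% in Fb-Par but 62.0% in Fb-Skn (means of 3 libraries, as are the following shares). Itga1 took 10.6%, 24.2% and 2.61%, and Itgav took 16.1%, 21.9% and 14.4%. The share of Itga5 was 10.3%, 14.3% and 6.57%, and that of Itga8 was 8.0%, 2.66% and 10.9%. By ligand, the collagen receptors held 59.0%, 55.7% and 64.7% of alpha RNA and the RGD receptors 34.4%, 38.9% and 31.9%. The leukocyte alpha subunits held 2.21%, 0.879% and 0.287%, and the laminin receptors 2.31%, 2.99% and 2.20%. Itgb1 made up 89.6%, 92.6% and 89.6% of the summed beta TPM, and its TPM was 1.66, 1.37 and 1.27 times the sum of the alpha subunits. These shares are descriptions of RNA and carry no test.

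**Figure D5:**
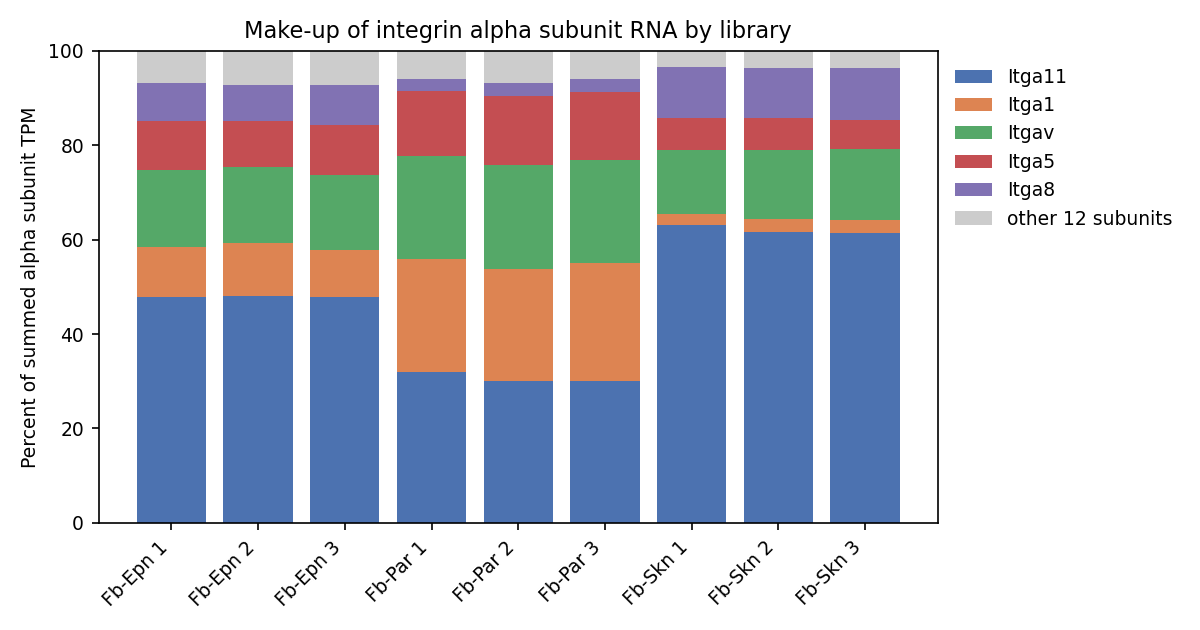
Share of each library's summed integrin alpha TPM (y axis, percent) held by Itga11, Itga1, Itgav, Itga5, Itga8 and the other 12 subunits (stacked bars), for the 9 libraries (x axis). Itga11 takes the largest part in every library and Itga1 is widest in Fb-Par, where it averages 24.2%, against 2.61% in Fb-Skn.

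Among the 9 linkers, 6 were lower and 2 higher in Fb-Epn relative to Fb-Par (18.6% of all genes were lower and 20.2% higher). Talin 1 (Tln1), which activates integrins, was at 198 to 210.4 TPM in Fb-Epn, 252 to 265 TPM in Fb-Par and 235 to 259 TPM in Fb-Skn. It was lower in Fb-Epn relative to Fb-Par (log2 fold change -0.33, SE 0.034, adjusted p = 1.5e-06) and relative to Fb-Skn (-0.42, SE 0.034, adjusted p = 7.8e-08). Fb-Par over Fb-Skn gave -0.097 (SE 0.034, adjusted p = 0.024), which was called without Fb-Skn replicate 1 (-0.12, adjusted p = 0.0074). Its paralogue Tln2, at 16.9 to 19.1, 11.7 to 12.9 and 11.6 to 14.1 TPM, was instead higher in Fb-Epn relative to Fb-Par (0.56, SE 0.071, adjusted p = 1.3e-05) and relative to Fb-Skn (0.36, SE 0.071, adjusted p = 5.6e-04). The ratio of Tln1 to Tln2 TPM was 11.4, 21.0 and 19.6 (Fb-Epn, then Fb-Par, then Fb-Skn).

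Vinculin (Vcl), which strengthens the link of talin to actin, was at 201 to 209 TPM in Fb-Epn, 349 to 359.6 TPM in Fb-Par and 281 to 301 TPM in Fb-Skn. It was lower in Fb-Epn relative to Fb-Par (log2 fold change -0.78, SE 0.028, adjusted p = 1.0e-11) and relative to Fb-Skn (-0.65, SE 0.028, adjusted p = 7.6e-11), and slightly higher in Fb-Par relative to Fb-Skn (0.13, SE 0.028, adjusted p = 0.0015). Itgav and Vcl shared the order Fb-Par, Fb-Skn, Fb-Epn with the summed TPM of the 7 mural cell markers, though not with each single marker. That sum was 108 to 112 TPM in Fb-Epn, 555 to 582 TPM in Fb-Par and 284 to 298 TPM in Fb-Skn. Of these markers, 5 were lower in Fb-Epn relative to Fb-Par, 4 were higher and 3 lower in Fb-Epn relative to Fb-Skn, and 7 were higher in Fb-Par relative to Fb-Skn, with Rgs5 and Kcnj8 at 0 in every Fb-Skn library. The part of mural cells was not tested.

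Kindlin 2 (Fermt2), the other integrin activator, ranged from 279 to 288 TPM in Fb-Epn, 369.5 to 390.5 TPM in Fb-Par and 249 to 258 TPM in Fb-Skn. It was highest in Fb-Par, with -0.40 for Fb-Epn over Fb-Par (SE 0.030, adjusted p = 3.8e-08) and 0.42 for Fb-Par over Fb-Skn (SE 0.030, adjusted p = 2.2e-08) on the log2 scale. Fb-Epn over Fb-Skn gave 0.015 (SE 0.030, adjusted p = 0.7) but was called with library sizes alone (0.10, adjusted p = 0.0077) and with limma on log2(TPM + 1) (0.15, adjusted p = 0.0024). Ilk, the integrin-linked pseudokinase that binds kindlin and the parvins, ranged from 267 to 287, 319.5 to 325 and 352 to 366 TPM (Fb-Epn, then Fb-Par, then Fb-Skn). It increased in that order, with log2 fold changes of -0.21 (SE 0.037, adjusted p = 2.7e-04), -0.52 (SE 0.037, adjusted p = 1.9e-08) and -0.31 (SE 0.037, adjusted p = 4.3e-06) for Fb-Epn over Fb-Par, Fb-Epn over Fb-Skn and Fb-Par over Fb-Skn. The Ilk and Tln1 rows overlap other genes on the opposite strand.

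The parvins tie Ilk to actin, and here only the beta form changed more than 2-fold. Parvb had 9.87, 10.8 and 10.5 TPM in Fb-Epn, 4.16, 5.03 and 3.47 TPM in Fb-Par and 8.96, 10.3 and 9.79 TPM in Fb-Skn. Fb-Par was below both other types, which overlapped. On the log2 scale, the difference was 1.31 (SE 0.13, adjusted p = 8.2e-07) for Fb-Epn over Fb-Par, -1.34 (SE 0.13, adjusted p = 5.5e-07) for Fb-Par over Fb-Skn and -0.036 (SE 0.12, adjusted p = 0.82) for Fb-Epn over Fb-Skn. Parva, the abundant form, ranged from 179 to 189, 171 to 175 and 176 to 189.9 TPM, and its ratio to Parvb was 17.6, 41.8 and 19.1 (Fb-Epn, then Fb-Par, then Fb-Skn). Parva was lower than in Fb-Skn in Fb-Epn (-0.16, SE 0.033, adjusted p = 0.0012) and in Fb-Par (-0.25, SE 0.034, adjusted p = 2.0e-05), and Fb-Epn over Fb-Par gave 0.090 (SE 0.034, adjusted p = 0.038). The first of these calls was lost without Fb-Epn replicate 1 (-0.14, adjusted p = 0.01) and with library sizes alone (-0.066, adjusted p = 0.11), and with limma on log2(TPM + 1) both were lost (-0.015, adjusted p = 0.76, and -0.094, adjusted p = 0.065).

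Paxillin (Pxn), the scaffold of the adhesion site, was the linker with the largest difference. It had 48.2, 45.3 and 47.5 TPM in Fb-Epn, 64.4, 61.4 and 65.6 TPM in Fb-Par and 20.1, 21.0 and 20.8 TPM in Fb-Skn. The types did not overlap, and Fb-Skn was lowest. The summed Schwann cell markers given above had the same order, Fb-Par, Fb-Epn, Fb-Skn, and their part in the Pxn values was not tested. The log2 fold change of Pxn was -0.43 (SE 0.047, adjusted p = 2.4e-06) between Fb-Epn and Fb-Par, 1.05 (SE 0.051, adjusted p = 2.9e-10) between Fb-Epn and Fb-Skn and 1.48 (SE 0.051, adjusted p = 4.2e-12) between Fb-Par and Fb-Skn. Focal adhesion kinase (Ptk2), its binding partner, ranged from 51.6 to 57.1, 69.4 to 73.6 and 43.9 to 46.8 TPM. It was highest in Fb-Par, at -0.37 for Fb-Epn over Fb-Par (SE 0.052, adjusted p = 3.0e-05) and 0.49 for Fb-Par over Fb-Skn (SE 0.052, adjusted p = 1.8e-06), and Fb-Epn over Fb-Skn gave 0.12 (SE 0.053, adjusted p = 0.08). That value was called with library sizes alone (0.20, adjusted p = 0.0049) and with limma on log2(TPM + 1) (0.25, adjusted p = 0.0024). In mean TPM, Ptk2, Fermt2 and Itga5 also had the order of the summed Schwann cell markers. None of them was called between Fb-Epn and Fb-Skn in the main fit. The part of Schwann cells in their values was not tested. The summed TPM of the 9 linkers was 1277 to 1294 in Fb-Epn, 1632 to 1642 in Fb-Par but 1395 to 1453 in Fb-Skn.

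Other genes of the pathway, from 7 lists of ligands, adaptors, kinases and regulators (137 genes, 132 present, 116 tested), also differed. Of the 116, 79 were called between Fb-Epn and Fb-Par (68.1%, with 38.8% of all genes as background; 29 higher and 50 lower in Fb-Epn), 83 between Fb-Epn and Fb-Skn (71.6%, background 43.9%; 41 and 42) and 88 between Fb-Par and Fb-Skn (75.9%, background 45.6%; 55 higher and 33 lower in Fb-Par). Collagen ligands were called in 10, 8 and 9 of 10 tested genes. Col4a1, of the basement membrane collagen, was at 757.5 ± 3.29 TPM in Fb-Epn, 3474 ± 103 TPM in Fb-Par and 534 ± 11.1 TPM in Fb-Skn (mean ± SD, n = 3), with a log2 fold change of 2.55 (SE 0.026, adjusted p = 6.8e-18) for Fb-Par over Fb-Skn. Col9a1 had 452 to 485 counts per library in Fb-Par and 0 to 1 in both other types.

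The RGD ligands were called in 12, 13 and 11 of 14 tested genes, beside 38.8%, 43.9% and 45.6% of all tested genes. Tenascin-C (Tnc) was at 1469 ± 19.4 TPM in Fb-Epn, 260.3 ± 9.91 TPM in Fb-Par and 1014 ± 36.5 TPM in Fb-Skn, with a log2 fold change of 2.51 (SE 0.029, adjusted p = 6.0e-17) for Fb-Epn over Fb-Par. Osteopontin (Spp1) had the opposite order of the nerve types, at 443 ± 5.95, 2149 ± 65.6 and 71.1 ± 3.21 TPM, and its log2 fold change for Fb-Par over Fb-Skn was 4.77 (SE 0.039, adjusted p = 1.2e-18). The laminin chains were called in 7 of 8 tested genes in each comparison, with the same shares of all genes as background. Lama5 was at 1.76 ± 0.143, 6.82 ± 0.263 and 0.386 ± 0.0888 TPM (Fb-Epn, then Fb-Par, then Fb-Skn) (3.99 for Fb-Par over Fb-Skn on the log2 scale, SE 0.14, adjusted p = 6.1e-12). Lamb3 was at 4.36 ± 0.497, 0.658 ± 0.217 and 15.7 ± 1.61 TPM (-4.70 for the same comparison, SE 0.18, adjusted p = 1.7e-11).

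Among the ligands of the immunoglobulin family, 3, 6 and 6 of 6 tested genes were called, beside 38.8%, 43.9% and 45.6% of all tested genes. Vcam1, the counter-receptor of alpha 4 beta 1, had 152 to 162 counts per library in Fb-Epn, 9 to 21 in Fb-Par but 0 to 3 in Fb-Skn. F11r, a junctional adhesion molecule bound by the alpha L integrin, was at 9.14 ± 1.30, 13.8 ± 3.19 and 0.924 ± 0.541 TPM (Fb-Par over Fb-Skn 3.77, SE 0.31, adjusted p = 8.8e-08). Icam1, bound by beta 2 integrins, was instead highest in Fb-Par, at 111 ± 2.47, 236 ± 2.40 and 129.6 ± 8.20 TPM (Fb-Epn over Fb-Par -1.08 on the log2 scale, SE 0.041, adjusted p = 1.7e-11).

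Of 39 tested adaptors of the adhesion site, 5 were higher and 22 lower in Fb-Epn relative to Fb-Par (20.2% of all genes were higher and 18.6% lower), and the difference between these shares was not tested. Against Fb-Skn, 12 were higher and 16 lower in Fb-Epn (23.0% and 20.9% of all genes), and 18 were higher and 13 lower in Fb-Par (23.2% and 22.4% of all genes). Sorbs2, a binder of vinculin, was at 2.52 ± 0.439 TPM in Fb-Epn, 28.1 ± 2.04 TPM in Fb-Par and 22.1 ± 1.23 TPM in Fb-Skn (Fb-Epn over Fb-Par -3.46 on the log2 scale, SE 0.099, adjusted p = 7.2e-13). Fermt3, the kindlin of blood cells, was at 21.4 ± 2.27, 6.67 ± 1.36 and 3.21 ± 1.13 TPM, and higher in Fb-Epn relative to Fb-Par (1.69, SE 0.19, adjusted p = 3.6e-06), in the order of the leukocyte markers. Sorbs3, another vinculin binder, was at 36.9 ± 1.01, 98.0 ± 6.28 and 12.7 ± 2.15 TPM (Fb-Par over Fb-Skn 2.79, SE 0.094, adjusted p = 3.5e-12). Kinases and phosphatases of the site were called in 7, 6 (42.9%) and 8 (57.1%) of 14, beside 38.8%, 43.9% and 45.6% of all tested genes. Among them was the receptor phosphatase Ptprf, at 33.3 ± 1.27, 20.2 ± 1.05 and 6.20 ± 0.108 TPM (Fb-Epn over Fb-Skn 2.29 on the log2 scale, SE 0.060, adjusted p = 2.4e-13). Regulators of integrins were called in 13, 15 and 16 of 25, with the tetraspanin Cd9 at 196 ± 7.88, 92.6 ± 3.49 and 348 ± 5.97 TPM (Fb-Par over Fb-Skn -2.06, SE 0.049, adjusted p = 6.9e-14).

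Perineurial and endothelial markers were also examined. Perineurial markers (6 listed and present, 3 tested) summed to 199 to 205 TPM in Fb-Epn, 79.6 to 87.3 TPM in Fb-Par and 102 to 115 TPM in Fb-Skn, and 3 of 3 were higher in Fb-Epn than in each other type, with Lypd2 at 0 in every library, and 1 was lower in Fb-Par relative to Fb-Skn. Endothelial markers (7 of 8 present, 4 tested) summed to 28.7 to 33.8, 24.6 to 25.6 and 24.3 to 34.3 TPM, and Cdh5, Emcn and Cldn5 were at 0 in Fb-Skn. Of the 4 tested, 1 was higher in Fb-Epn relative to Fb-Par, 3 were higher and 1 lower relative to Fb-Skn, and 1 was higher and 1 lower in Fb-Par relative to Fb-Skn. The part of these cells in the integrin values was not tested.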

How the data were processed

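Poly(A) RNA of 9 samples was made into directional libraries and sequenced as paired ends of 150 bp. The submitters' processing notes name FastQC 0.11.7, Trimmomatic 0.38, HISAT2 2.1.0, featureCounts 1.6.3 and the genome rn6, and the annotation release and the strand setting of the counting are not given in the sources used here. The authors deposited raw counts per gene and TPM for the same genes, and both were used as they stand, while their FPKM were not used. Samples were grouped by title, and every table column matched a sample.

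Counts were fitted with R 4.3.3 and edgeR 4.0.16 (TMM, factors from 0.955 to 1.03, default expression filter, quasi-likelihood F test, 6 residual degrees of freedom), with contrasts between the 3 types. The depth of each library was at least 10084584 counts, and exact intervals of count ratios (95%, used where the lower type had at most 3 counts per library) cover counting error only. In simulated counts for Fb-Epn against Fb-Skn, the test found 200 of 200 altered genes and called 2 of the others, out of 13037 genes. The altered genes were drawn from those with higher counts and changed by the same fold, and every gene had the same spread. The simulation therefore does not show how the test performs for members with few counts or small differences. Replicates of a type differed beyond counting noise in every pair (chi-square per gene from 3.18 to 5.45), so none was merged.

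The members and the gene lists were chosen with earlier results of these data known. Every member present is reported: per library where called with a log2 fold change beyond 1 or -1, by its range otherwise, and by counts where the mean TPM was below 1 in every type. Of the pathway lists, examples are named from the 2 genes with the largest called changes per list, direction and comparison. Promoters are the 250 bases before RefSeq start sites in GRCr8. Alternatives were RLE, upper-quartile and no scaling factors, filters of at least 1 count or at least 10 counts in every library, DESeq2 1.42.0, limma 3.58.1 on log2(TPM + 1) or log2(TPM + 0.1), only the 2 types compared, a replicate block, each library left out and other thresholds. Python 3.11.15, pandas 2.3.3, scipy 1.17.1 and matplotlib 3.10.9 were used.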

Additional observations from a re-analysis of the deposited data

How the results depend on the processing

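With 3 samples per type, the smallest p of an exact two-sided permutation test is 0.10, so calls rest on the spread shared across genes. No called difference of a member changed direction in any alternative. The number of members called stayed within 22 to 28, 20 to 28 and 23 to 30 for Fb-Epn against Fb-Par, Fb-Epn against Fb-Skn and Fb-Par against Fb-Skn. Shares of all tested genes are given for the main fit only, so counts under other settings have no background beside them. The numbers of DE members moved more. They were 2, 3 and 5 with at least 10 counts in every library, where fewer members could be tested, and 9, 18 and 16 with a limit of 1 on the log2 fold change. With limma on log2(TPM + 1), whose pseudocount shrinks low genes, they were 1 and 5 in the comparisons of Fb-Epn. The filter of at least 10 counts also turned the split of Fb-Epn against Fb-Skn from 15 higher and 11 lower to 9 higher and 11 lower. The library factors moved the median of all genes by at most 0.095 on the log2 scale. Over the tested genes, libraries with equal replicate numbers did not deviate together more than others (r from -0.080 to 0.020 over 9 pairs with equal numbers, -0.045 to 0.089 over 18 others). This check cannot tell whether equal numbers share a rat, a dissection or a culture. With the replicate block, 26, 26 and 27 members were called and 5, 9 and 9 were DE, and the calls lost were Itga3 (Fb-Par against Fb-Skn, 0.61, adjusted p = 0.013) and Itgb8 (Fb-Epn against Fb-Par, -0.53, adjusted p = 0.014).

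Differences that were not called and changed sign were as follows, on the log2 scale, and the cause was not tested. Values are given for upper-quartile factors (Itga2b 0.0063, Itgal 0.0055 and Itgb1 0.016 for Fb-Epn against Fb-Par), for library sizes alone (Itgae -0.0050 for Fb-Epn against Fb-Par, Itga5 0.079 and Parvb 0.054 for Fb-Epn against Fb-Skn), for the filter of 10 counts (Itga5 0.013) and for RLE factors (Itgae -0.0062). DESeq2 gave -0.0050 for Itgae (Fb-Epn against Fb-Par) and 0.0010 for Itga5 (Fb-Epn against Fb-Skn), and the replicate block -0.0095 for Itgae and 0.025 for Itgal (Fb-Epn against Fb-Par). With limma on log2(TPM + 1), they were Itga2b 0.0028 and Itgae -0.015 (Fb-Epn against Fb-Par), Itga5 0.13 and Parvb 0.094 (Fb-Epn against Fb-Skn) and Tln1 0.053 (Fb-Par against Fb-Skn). With log2(TPM + 0.1), they were Itga2b 0.048, Itgae -0.020 and Itgal 0.016, then Itga5 0.13 and Parvb 0.10, and Tln1 0.054, in the same comparisons. Leaving out 1 library at a time gave ranges of -0.32 to 0.32 (Itga2b), -0.12 to 0.13 (Itgae), -0.29 to 0.32 (Itgal) and -0.018 to 0.0034 (Itgb1) for Fb-Epn against Fb-Par, -0.029 to 0.021 (Itga5), -0.073 to 0.20 (Itgae) and -0.074 to 0.0045 (Parvb) for Fb-Epn against Fb-Skn, and -0.073 to 0.17 (Itgae) for Fb-Par against Fb-Skn.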
